A study of Mus musculus with 39 samples.

Results

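Pyruvate entry into the mitochondrial tricarboxylic acid (TCA) cycle, and the cycle itself, were followed through 9 mouse transcripts: Pdha1, Pdhb, Pdk1, Cs, Idh2, Idh3a, Ogdh, Fh1 and Mdh2. They are the entries of the deposited expression tables that carry these symbols, and the list was set with earlier results of these data known. All 9 were listed in all 39 libraries, out of 11556 genes listed in at least 1 of 5 experiments and 6926 listed in every one. The question was what going without food does to these enzymes in liver cells and in monocytes, circulating phagocytes made in bone marrow.

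Mice of 8 to 12 weeks were either kept with food and water or had their food taken away and their bedding changed, with water left in place. Hepatocytes of C57BL/6 mice, isolated from liver by perfusion and centrifugation, came from mice fasted for 4 h (2 libraries) or fed for 4 h (3), and from mice fasted for 12 h (3) or fed for 12 h (2). Monocytes sorted by flow cytometry from bone marrow of C57BL/6 mice came from mice fasted for 4 h (4) or fed (4), and from mice fasted for 17 h (4) or fed (3). Monocytes sorted from spinal cords of C57BL/6 mice in which experimental autoimmune encephalomyelitis (EAE), a model of autoimmune attack on myelin, had been induced came from mice fasted in alternating cycles of 24 h for 4 weeks (4) or fed throughout (4). A further marrow comparison set CCR2-/- mice (3), which lack the chemokine receptor that releases monocytes from marrow, against C57BL/6 mice (3), all of them fed. Expression is in TPM, a value scaled for transcript length and for the library total. The values themselves gave this unit, and scaling to the library total alone, without length, could not be fully told apart from it. Depth is unknown, and the labels do not say whether libraries come from separate animals, so p-values measure the spread between libraries only.

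Pyruvate from glycolysis crosses into the mitochondrion and is turned into acetyl-CoA by the pyruvate dehydrogenase complex, an irreversible step that commits carbohydrate carbon to oxidation or lipid synthesis. Pyruvate dehydrogenase kinases switch the complex off by phosphorylating its E1 alpha subunit, and in liver that switch is known to spare pyruvate for glucose production during fasting. The TCA cycle then oxidizes acetyl-CoA, whether it comes from pyruvate or from fatty acids, and several of its intermediates leave for glucose or lipid synthesis. Pdha1 and Pdhb encode the alpha and beta subunits of E1, and Pdk1 encodes a kinase that acts on it. Cs encodes citrate synthase, Idh3a the catalytic subunit of the NAD-dependent isocitrate dehydrogenase, Idh2 its NADP-dependent mitochondrial counterpart, Ogdh the E1 component of the 2-oxoglutarate dehydrogenase complex, Fh1 fumarase, and Mdh2 mitochondrial malate dehydrogenase.

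In GRCm38 (GENCODE M21) Pdha1 lies at chrX:160122209-160138413 on the minus strand, Pdhb at chr14:8165996-8173025 (minus), Pdk1 at chr2:71873224-71903858 (plus), Cs at chr10:128337734-128362479 (plus), Idh2 at chr7:80094846-80115392 (minus), Idh3a at chr9:54586334-54604661 (plus), Ogdh at chr11:6291633-6356642 (plus), Fh1 at chr1:175600374-175625635 (minus) and Mdh2 at chr5:135778480-135790398 (plus). All 9 are protein-coding genes. RefSeq promoter windows of 300 bases (GRCm38.p6) were matched for 8 of the 9 genes, in 14 windows, and those of 4 genes are printed here. Pdk1 is the member with the largest fasting difference in 17 h marrow, whose fed libraries stand apart, Ogdh and Fh1 are those whose fasting difference was called in opposite directions at 4 h and 12 h in hepatocytes, and Pdha1 is the one with the largest difference between the fed hepatocytes of the 2 times. Windows run 5′ to 3′ on the strand of the gene and cover the annotated start and its flanks. Capitals mark the cores GCGTG and ACGTG, bound by the hypoxia factor HIF1A, of which Pdk1 is a known target, and the cAMP response element TGACGTCA, each on either strand.
Pdk1 (chr2:71872974-71873273, plus): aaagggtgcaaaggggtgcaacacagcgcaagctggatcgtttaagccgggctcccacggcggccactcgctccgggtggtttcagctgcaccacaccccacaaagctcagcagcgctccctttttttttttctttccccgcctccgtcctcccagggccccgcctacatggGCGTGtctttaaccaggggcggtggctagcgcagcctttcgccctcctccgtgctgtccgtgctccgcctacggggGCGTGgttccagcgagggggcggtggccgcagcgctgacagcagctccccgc
Ogdh (chr11:6291347-6291646, plus): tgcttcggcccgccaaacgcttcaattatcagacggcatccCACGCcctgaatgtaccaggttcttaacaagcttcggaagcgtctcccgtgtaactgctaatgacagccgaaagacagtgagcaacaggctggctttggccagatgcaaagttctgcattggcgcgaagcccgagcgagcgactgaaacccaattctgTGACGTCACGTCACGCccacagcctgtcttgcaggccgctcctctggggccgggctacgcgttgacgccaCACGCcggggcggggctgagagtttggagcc
Fh1 (chr1:175625586-175625885, minus): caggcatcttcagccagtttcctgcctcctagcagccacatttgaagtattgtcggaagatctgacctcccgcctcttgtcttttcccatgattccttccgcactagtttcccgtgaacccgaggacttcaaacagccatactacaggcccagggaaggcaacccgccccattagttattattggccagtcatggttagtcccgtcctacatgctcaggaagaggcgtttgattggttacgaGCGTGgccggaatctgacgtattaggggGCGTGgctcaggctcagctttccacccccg
Pdha1 (chrX:160138381-160138680, minus): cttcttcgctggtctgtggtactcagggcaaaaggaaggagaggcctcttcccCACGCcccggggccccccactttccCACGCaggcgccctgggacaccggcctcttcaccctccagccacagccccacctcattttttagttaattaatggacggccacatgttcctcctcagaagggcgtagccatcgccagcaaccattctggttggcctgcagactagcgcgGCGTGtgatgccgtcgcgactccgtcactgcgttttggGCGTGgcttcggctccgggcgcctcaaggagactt
GCGTG occurred in 10 of the 14 windows and in 32.4% of 32851 promoter windows of the genome, and ACGTG in 7 of the 14 and in 19.6% of all. Of the 7 windows with ACGTG, 6 are windows of Ogdh, some of them overlapping, and the other is that of Pdhb. The printed Pdk1 window holds 2 GCGTG cores, that of Fh1 2, that of Pdha1 4, and that of Ogdh 3 together with 1 ACGTG. TGACGTCA occurred in 4 of the 14 windows, 3 of them overlapping windows of Ogdh and 1 of Mdh2, against 1.79% of all windows. In the printed Ogdh window this element shares letters with 1 HIF core. These matches describe letters, not bound sites.

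Some libraries stand apart, and results that rest on them are given with the values that bear on it. The hepatocyte libraries carried all 6 hepatocyte markers sought (Alb, Apoa1, Ttr, Serpina1a, Fgb and Cps1), which summed to 53190 to 83580 TPM, and these 6 are not among the genes of the monocyte tables; the monocyte libraries carried all 7 monocyte markers sought. The 3 fed 17 h marrow libraries had a median log2 value of 4.04 to 4.18, against 5.15 to 5.25 in fasted 17 h libraries and 5.198 to 5.45 in all other marrow libraries. A slope on transcript length was taken for each library from its log2 values relative to each gene's mean over the libraries of that experiment. These slopes balance out within an experiment, so they do not tell which group carries a length trend. The slope was -0.33 to -0.26 per doubling of length in those 3 fed libraries and 0.19 to 0.27 in the fasted 17 h libraries. It was -0.22 to -0.12 in all 4 h hepatocyte libraries and 0.11 to 0.22 in all 12 h hepatocyte libraries. Fed spinal cord libraries 1 and 2 held 119090 and 123950 TPM of neutrophil and precursor markers (10 of 11 listed, Ngp, Ltf and Lcn2 the most abundant), against 12572 and 6743 TPM in fed libraries 3 and 4 and 9156 to 19360 TPM in fasted libraries. The pair of fasted 4 h hepatocyte libraries correlated at r = 0.917 across genes. Each library of the other hepatocyte groups had a mean r of 0.968 or more with the libraries of its own group. Fasted 4 h hepatocyte libraries 1 and 2 listed 75 and 209 genes at 0 TPM. The number was 8 to 35 in fed 4 h, 24 to 25 in fed 12 h and 13 to 22 in fasted 12 h hepatocyte libraries. The part of this in the 4 h results was not tested. In bulk libraries of this kind fewer cells of a type and less RNA per cell cannot be told apart.

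Group means differed most for Pdk1 and least for Mdh2. Mdh2 was the most abundant of the 9 in all 39 libraries, and Pdk1 the least abundant in 30 of them. Pdk1 was highest in hepatocytes of mice fed for 12 h, at 66.6 ± 1.45 TPM (SD, n = 2), and lowest in marrow monocytes of mice fed in the 17 h experiment, at 4.84 ± 0.64 TPM (SD, n = 3), a 13.8-fold range of group means. Among the 12 groups ordered by mean Pdk1, all 4 hepatocyte groups came out on top, and 7 of the 11 neighbouring pairs had overlapping libraries. The low end of the Pdk1 range is the fed 17 h marrow group that stands apart, and the next lowest mean was 9.83 TPM, in fed spinal cord monocytes. The marrow groups other than fed 17 h ran from 26.7 to 33.8 TPM without a gap between any neighbours.

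Cs ordered the cells the other way. Its mean was 41.8 to 72.6 TPM in the 4 hepatocyte groups and 120.6 to 167.7 TPM in every monocyte group except fed 17 h marrow, at 32.5 ± 4.55 TPM (SD, n = 3). No hepatocyte library reached the lowest of those other monocyte groups' means. Within the hepatocytes no neighbouring pair of groups overlapped for Cs. Pdha1, Pdhb and Idh3a were all highest in the marrow of the CCR2 experiment and lowest in hepatocytes of mice fasted for 4 h, where Idh3a averaged 12.4 ± 5.49 TPM and Pdha1 22.7 ± 5.47 TPM (SD, n = 2). Idh3a had overlapping libraries in 9 of 11 neighbouring pairs of groups.

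Fh1 and Mdh2, which catalyse successive steps from fumarate to oxaloacetate, ran apart. Fh1 was highest in hepatocytes fasted for 12 h, at 181.5 ± 7.94 TPM (SD, n = 3), and lowest in spinal cord monocytes, at 37.4 ± 3.18 TPM in fasted mice and 37.65 ± 26.55 TPM in fed mice (SD, n = 4 each). Mdh2 was highest in the same spinal cord monocytes, at 438.7 TPM in fasted mice and 496 TPM in fed mice. The ratio of Fh1 to Mdh2 was 0.65 to 0.69 in 12 h fasted hepatocytes, 0.37 to 0.38 in 12 h fed hepatocytes and 0.024 to 0.14 across the 8 spinal cord libraries. The tables of the experiments list different genes, so levels set across them are descriptions.

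**Figure D1:**
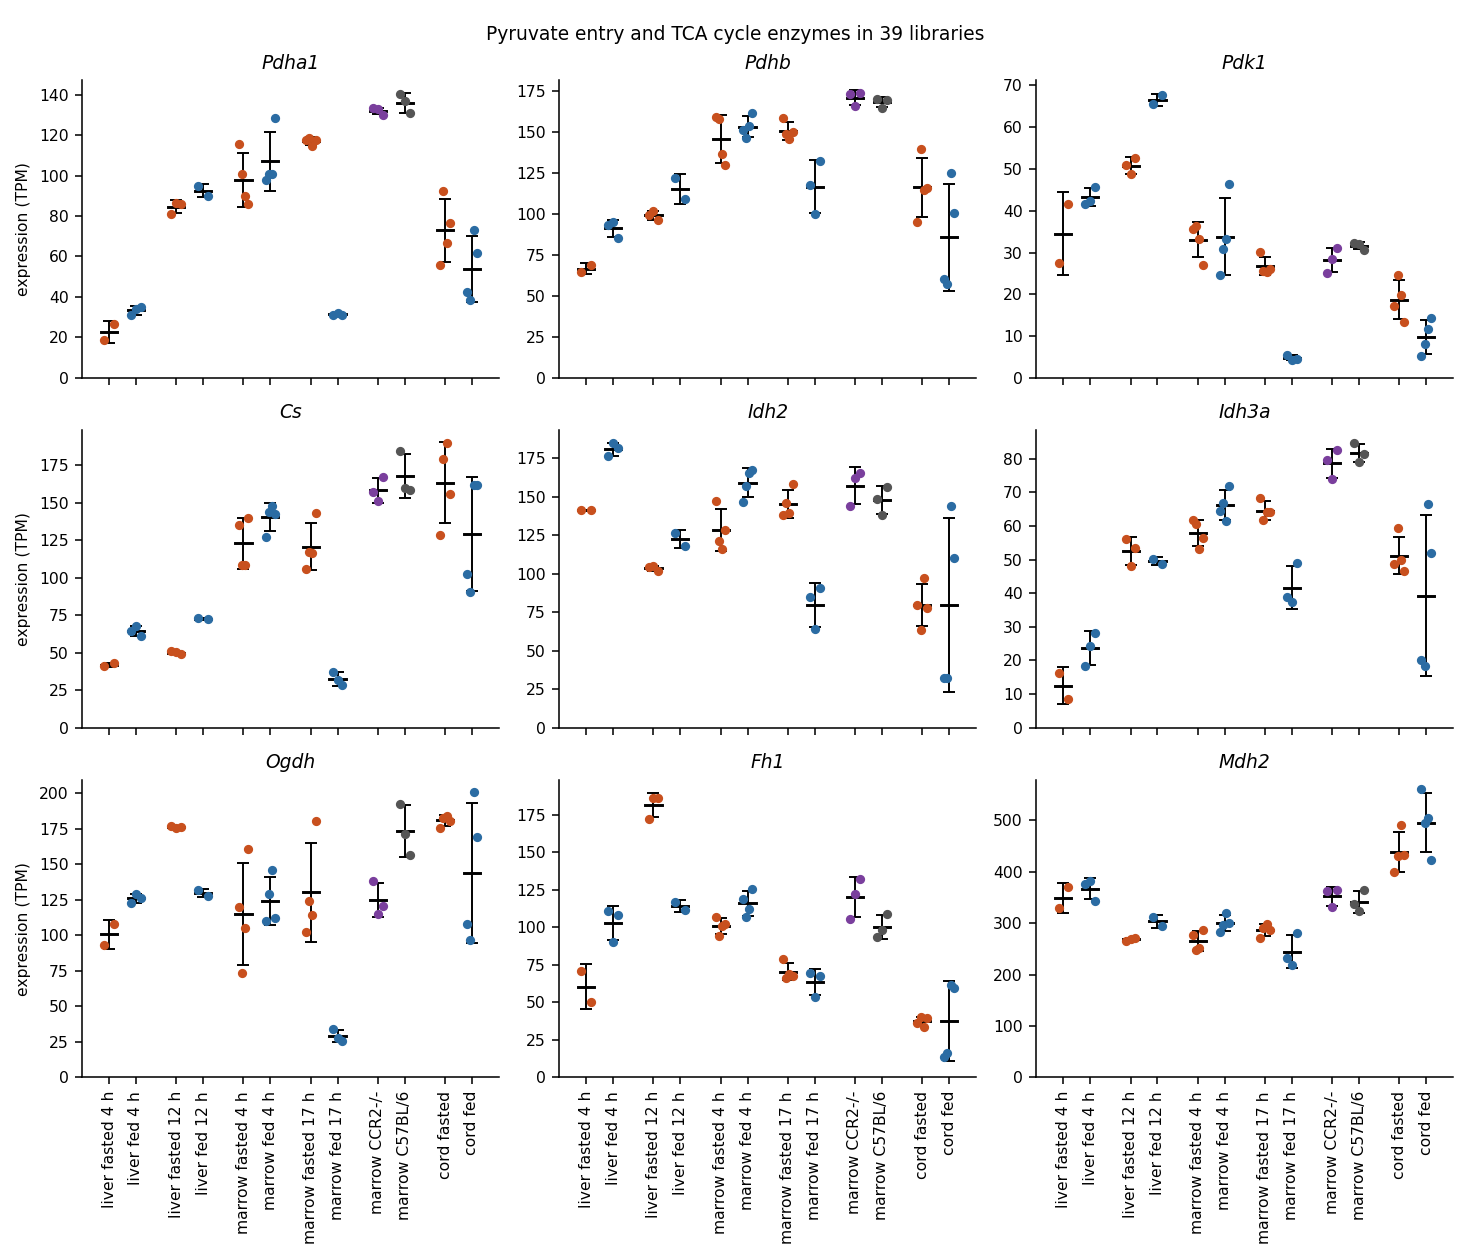
Expression in TPM (vertical axes, from 0) of the 9 transcripts in 12 groups (horizontal axes); each point is a library (orange fasted, blue fed, purple CCR2-/-, grey C57BL/6), and black bars show the mean with its SD. Fed 17 h marrow monocytes sit far below the other marrow groups for Pdha1, Pdk1, Cs and Ogdh, and the fed spinal cord libraries split into a low and a high pair for Idh2, Idh3a and Fh1.

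The alpha and beta subunits of E1 did not keep a fixed transcript ratio. Pdha1 TPM over Pdhb TPM was 0.29 and 0.39 in hepatocytes fasted for 4 h and 0.33 to 0.41 in those fed for 4 h, but 0.82 to 0.89 in hepatocytes fasted for 12 h and 0.78 to 0.83 in those fed for 12 h. In marrow it was 0.24 to 0.32 in the 3 fed 17 h libraries and 0.64 to 0.83 in all others. The 8 libraries with a ratio under 0.5, at most 0.41, are those of 4 h hepatocytes and fed 17 h marrow. Every other library had a ratio of at least 0.58. The same 8 have the lowest slope on transcript length, at or below -0.12. Each slope is relative to the library's own experiment, so slopes of different experiments are not on 1 scale. Within an experiment the match restates which group differs from the other libraries. The part of that slope in the ratio was not tested. The lengths used, medians over all annotated transcripts of a gene whether expressed or not, are close for Pdha1 and Pdhb, 679 and 644 bases. Removing a library's length trend therefore shifts both nearly alike and cannot decide what part the slope has in their ratio. With that trend removed, the Pdha1 difference between fed hepatocytes of 12 h and 4 h was 1.47 on the log2 scale, against 1.45 as deposited.

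**Figure D2:**
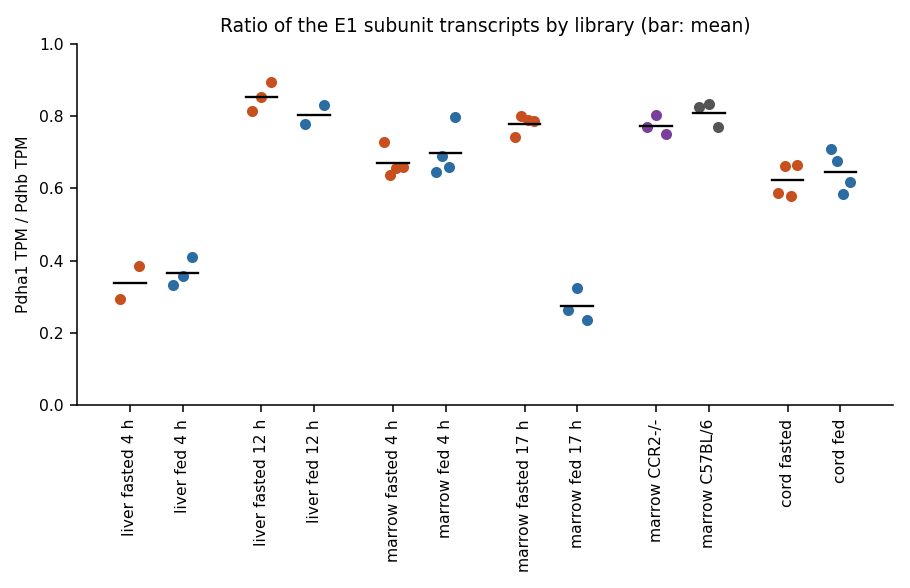
Ratio of Pdha1 TPM to Pdhb TPM (vertical axis) in each library of the 12 groups (horizontal axis; orange fasted, blue fed, purple CCR2-/-, grey C57BL/6; bars are group means). The 4 h hepatocyte libraries and the fed 17 h marrow libraries lie at 0.24 to 0.41, and all other libraries at 0.58 to 0.89.

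After 4 h without food, 7 of the 9 transcripts fell in hepatocytes, and none rose. Of all 8966 genes tested with limma, 37.2% passed an adjusted p under 0.05, 26.8% lower and 10.4% higher, and the median log2 fold change was -0.22. Cs, whose product condenses acetyl-CoA with oxaloacetate, had 40.8 and 42.8 TPM in fasted libraries, against 64.5, 67.8 and 61.3 TPM in fed libraries. Its log2 fold change was -0.61 ± 0.09 (SE; adjusted p = 0.00086), or -0.39 relative to the median gene, with no overlap between the groups. Fumarase, Fh1, had 71.1 and 49.9 TPM in fasted libraries, against 110.7, 89.9 and 108.5 TPM in fed libraries (-0.77 ± 0.15, adjusted p = 0.0035). Both fasted libraries were below all fed ones for Fh1.

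The E1 subunits fell by 0.55 (Pdha1) and 0.45 (Pdhb) on the log2 scale in the same hepatocytes. Pdha1 had 18.8 and 26.55 TPM in fasted libraries, against 30.9, 33.9 and 35.1 TPM in fed libraries (adjusted p = 0.014). The Pdha1 value was -0.79 without fasted library 2 and -0.31 without fasted library 1, and its call ended when only the 4 h libraries were fitted (adjusted p = 0.098) or the length trend was removed (-0.39, adjusted p = 0.097). Pdhb had 64.2 and 68.75 TPM in fasted libraries, against 92.8, 95.1 and 85.3 TPM in fed libraries (adjusted p = 0.0041). The groups did not overlap for either subunit. Idh2 was at 141.2 TPM in both fasted libraries, against 176.3, 184.7 and 181.9 TPM in fed libraries, a log2 fold change of -0.36 (adjusted p = 0.0031; -0.19, adjusted p = 0.063, after quantile normalization). Ogdh, the entry component of the next oxidative step, had 93.3 and 108 TPM in fasted libraries, against 123, 129.4 and 126.1 TPM in fed libraries (-0.33, adjusted p = 0.0098). The Ogdh call ended after removal of the length trend (-0.06, adjusted p = 0.60), after quantile normalization (-0.19, adjusted p = 0.068) and with only the 4 h libraries fitted (adjusted p = 0.080). Both sets of libraries were separate, by less in log2 terms than for Cs or Fh1.

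Idh3a had 16.3 and 8.54 TPM in fasted hepatocytes at 4 h, against 18.4, 24.3 and 28.3 TPM in fed ones, with a log2 fold change of -0.92 ± 0.25 (SE; adjusted p = 0.019). This call rested on single libraries: it ended without fasted library 2 (-0.49, adjusted p = 0.089), fed library 2 (adjusted p = 0.052) or fed library 3 (adjusted p = 0.059). Pdk1 had 27.5 and 41.6 TPM in fasted libraries, against 41.7, 42.4 and 45.6 TPM in fed libraries, and was not called (-0.34, adjusted p = 0.11); without fasted library 2 the value was -0.63 (adjusted p = 0.002). Mdh2 had 329.4 and 370.5 TPM in fasted libraries, against 375.6, 382.2 and 344.2 TPM in fed libraries, with overlapping groups (-0.07, adjusted p = 0.46), and its sign turned to 0.02 to 0.08 under 3 other scalings. Of the 9, 8 had groups that did not overlap, against 53.7% of all genes.

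The number of members lower at 4 h was 5 after quantile normalization, 4 when only the 5 libraries of that time were fitted and 3 after removal of the length trend, which left Cs, Idh2 and Fh1. The share of all genes called under these settings is not given here. These counts therefore do not tell whether the members lost calls more than other genes did. The 9 Kupffer cell markers, all listed, summed to 2143 and 2159 TPM in fasted 4 h libraries and 1284 to 1333 TPM in fed ones, and the 8 endothelial markers to 577.9 and 655.8 TPM in fasted libraries and 335.7 to 367.2 TPM in fed libraries. Erythroid markers summed to 1453 and 2940 TPM in fasted libraries and 3971 to 4937 TPM in fed libraries, and mitochondrially encoded genes held 2.71% and 2.88% of a fasted library and 1.49% to 1.89% of a fed one. The part of these values in the result was not tested.

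After 12 h without food the 9 transcripts split in hepatocytes: Cs and Idh2 fell, Ogdh and Fh1 rose, and 5 were not called, where 40.3% of all genes were called (23.4% higher, 16.8% lower; median log2 fold change 0.05). Cs had 51.2, 50.1 and 48.8 TPM in fasted libraries, against 73 and 72.3 TPM in fed libraries, a log2 fold change of -0.53 ± 0.09 (SE; limma adjusted p = 0.0011). It lay below every fed library by more than 20 TPM. Fh1 had 172.3, 186 and 186.1 TPM in fasted libraries, against 117.1 and 111.4 TPM in fed libraries (0.66 ± 0.15, adjusted p = 0.0054). Ogdh had 177.3, 175.3 and 176.2 TPM in fasted libraries, against 131.6 and 127.8 TPM in fed libraries (0.44 ± 0.08, adjusted p = 0.0014). For both, the libraries of a group lay within 14 TPM of each other and the groups were separate; the Ogdh call ended when the length trend was removed (0.16, adjusted p = 0.14).

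Idh2 had 104.3, 104.8 and 101.6 TPM in hepatocytes fasted for 12 h, against 126.7 and 118.2 TPM in fed ones (-0.24 ± 0.07, adjusted p = 0.016), and the call ended without fed library 1 (-0.19, adjusted p = 0.16) and after quantile normalization (-0.08, adjusted p = 0.36). The kinase transcript Pdk1 had 51, 48.8 and 52.7 TPM in fasted libraries, against 65.6 and 67.6 TPM in fed libraries. Its log2 fold change of -0.38 was not called (adjusted p = 0.077), although the groups did not overlap. Pdk1 was called lower with only the 12 h libraries fitted (adjusted p = 0.007). It was also called lower with libraries centred (-0.49, adjusted p = 0.028) and with the length trend removed (-0.525, adjusted p = 0.021). Pdhb and Mdh2 were separate too, at -0.21 (adjusted p = 0.083) and -0.18 (adjusted p = 0.076; 0.005 after quantile normalization), and Pdha1 at -0.13 (adjusted p = 0.51). Pdhb was called lower with libraries centred (-0.32, adjusted p = 0.019) and with the length trend removed (-0.31, adjusted p = 0.038). Mdh2 was called lower centred (-0.28, adjusted p = 0.013), with the length trend removed (-0.31, adjusted p = 0.014) and with only the 12 h libraries fitted (adjusted p = 0.023). Idh3a overlapped, at 56.2, 48 and 53.3 TPM in fasted libraries, against 50.3 and 48.7 TPM in fed ones (0.08, adjusted p = 0.83; -0.03 and -0.14 under 2 other scalings). Non-overlap was common at this size, with 8 of 9 members and 71.4% of all genes.

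The number of members called at 12 h was 7 with libraries centred on their median, and 6 with the length trend removed or only the 12 h libraries fitted. The share of all genes called under these settings is not given here either. Kupffer markers summed to 570.4 to 577.8 TPM in fasted 12 h libraries and 76 to 82.6 TPM in fed ones, endothelial markers to 417.7 to 444.1 TPM in fasted libraries and 32.5 to 35.5 TPM in fed libraries, and hepatocyte markers to 79500 to 83580 TPM in fasted libraries and 53410 to 54030 TPM in fed libraries. Erythroid markers summed to 344.2 to 417 TPM in fasted libraries and 23.2 to 29.6 TPM in fed libraries, and mitochondrially encoded genes held 5.13% to 5.79% of a fasted library and 3.31% to 3.47% of a fed one. Their part was not tested.

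Fh1 and Ogdh therefore had fasting differences of opposite sign at the 2 times, and the difference between times was itself tested over the 10 hepatocyte libraries. Fh1 differed by 1.44 ± 0.21 (SE; limma adjusted p = 0.00096) and Ogdh by 0.77 ± 0.11 (adjusted p = 0.00088), 12 h minus 4 h, and no other member was called, where 30.7% of all genes were (23.2% higher). The median gene differed by 0.33. Relative to it Fh1 stood at 1.11 and Ogdh at 0.44, and the Ogdh call ended after removal of the length trend (0.22, adjusted p = 0.19), while Fh1 kept its call there. Idh3a differed by 1.00 ± 0.35 (adjusted p = 0.059) and passed without fasted 4 h library 1 (1.43, adjusted p = 0.003). For Cs the difference between the times was 0.08 (95% interval -0.20 to 0.36, adjusted p = 0.66), and it was -0.12, -0.03 and -0.42 under 3 other scalings, the last of these, with the length trend removed, being called (adjusted p = 0.046). Mdh2 stood at -0.11 (adjusted p = 0.46) and was also called with the length trend removed (-0.39, adjusted p = 0.036). Pdha1 stood at 0.43 (adjusted p = 0.13), Pdhb at 0.24 (adjusted p = 0.18; -0.02 with the length trend removed), Idh2 at 0.12 (adjusted p = 0.37; -0.08 centred and -0.19 with the length trend removed) and Pdk1 at -0.04 (adjusted p = 0.91).

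Part of the members' levels differed between the times without any fasting. In fed hepatocytes Pdha1 was at 94.85 and 90.15 TPM in the 12 h libraries, against 30.9, 33.9 and 35.1 TPM in the 4 h libraries, a log2 difference of 1.45 ± 0.14 (SE; limma adjusted p = 2.7e-05). Idh3a was at 50.3 and 48.7 TPM at 12 h, against 18.4, 24.3 and 28.3 TPM at 4 h (1.06 ± 0.25, adjusted p = 0.0053). Pdk1 (0.61) and Pdhb (0.33) were also called higher at 12 h, and Idh2 (-0.56) and Mdh2 (-0.27) lower, so that 6 of 9 were called against 59.1% of all genes (33.3% higher, 25.8% lower). The Pdhb and Pdk1 calls ended with libraries centred on their median (0.08 and 0.36), and the Mdh2 call after quantile normalization (-0.16). Cs (0.17, adjusted p = 0.13), Fh1 (0.15, adjusted p = 0.39) and Ogdh (0.04, adjusted p = 0.68) were not called as deposited. With libraries centred they stood at -0.08, -0.10 and -0.21, and Ogdh was called lower there (adjusted p = 0.032). With the length trend removed, Cs (-0.35, adjusted p = 0.011) and Ogdh (-0.64, adjusted p = 0.00014) were both called lower at 12 h. Fed libraries of the 2 times also differed in Kupffer markers, at 76 to 82.6 TPM at 12 h and 1284 to 1333 TPM at 4 h, and the part of those cells was not tested.

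**Figure D3:**
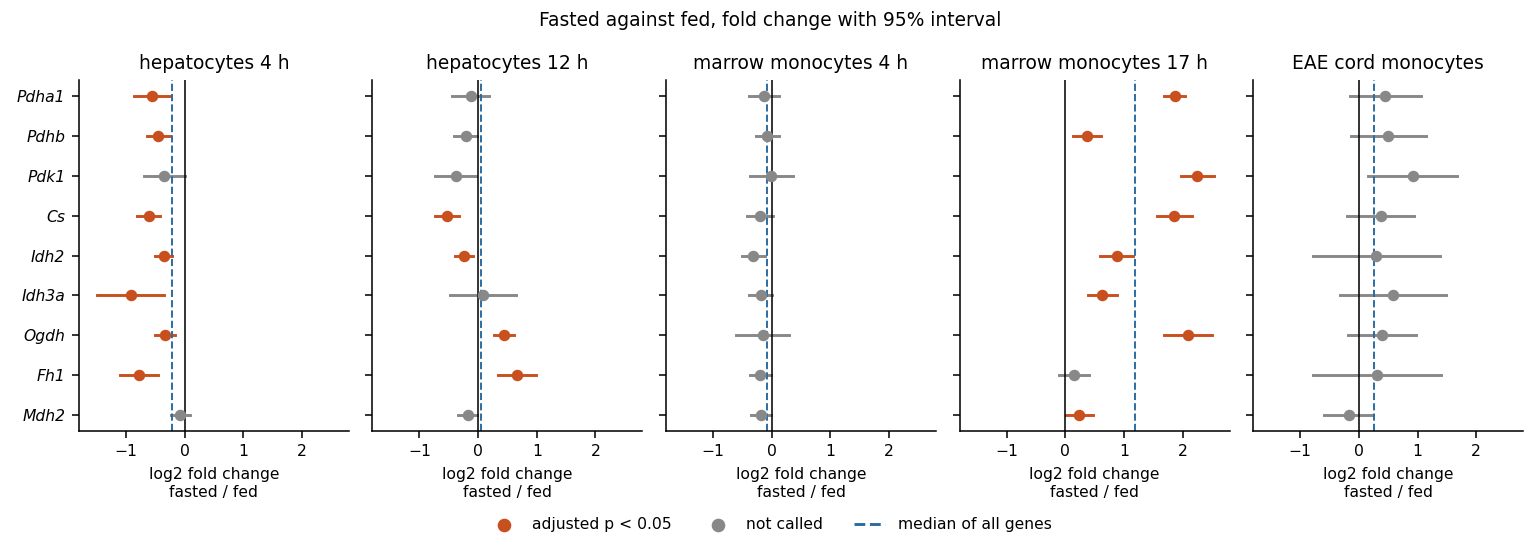
Log2 fold change of fasted over fed on log2(TPM + 1) (horizontal axes, points with 95% intervals) for the 9 members (vertical axis) in 5 comparisons; orange marks an adjusted p under 0.05 and the dashed blue line the median of all genes tested. In 4 h hepatocytes all 9 members lie below 0 and 7 are called (Mdh2, not called, lies above 0 under 3 other scalings), in 12 h hepatocytes Fh1 and Ogdh are called above it, and in 17 h marrow the median gene itself lies at 1.18, with Pdhb, Idh2, Idh3a, Fh1 and Mdh2 below that line and negative once libraries are centred on their median.

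In marrow monocytes 4 h without food changed none of the 9 at an adjusted p under 0.05 (limma, over 9428 genes, of which 0.424%, 40 genes, were called and 1468 had an unadjusted p under 0.05). The largest difference was that of Idh2, with 147.4, 121.3, 116.2 and 128.1 TPM in fasted libraries, against 146.5, 157.2, 165.6 and 167.2 TPM in fed libraries (-0.31, 95% interval -0.51 to -0.11, adjusted p = 0.17). The first fasted library lay among the fed ones. Fh1 alone was separate, with 106.9, 94, 101.2 and 102.2 TPM in fasted libraries, against 119.1, 107.1, 112 and 125.4 TPM in fed libraries (-0.19, adjusted p = 0.29); 8.81% of all genes were separate here. All 9 values lay between -0.31 and -0.004, and that of Pdk1, -0.004 (95% interval -0.38 to 0.37), turned positive under 3 other scalings. The value of Cs was -0.20 (95% interval -0.42 to 0.03) and that of Pdha1 -0.13 (-0.38 to 0.13). Idh3a stood at -0.19, Mdh2 at -0.18, Ogdh at -0.16 and Pdhb at -0.07.

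After 17 h, 8 of the 9 were higher in fasted than in fed marrow monocytes as deposited, in a comparison where 89.5% of all genes were called (75.4% higher, 14% lower) and the median log2 fold change was 1.18. Pdk1 had 30.05, 25.5, 25.4 and 26 TPM in fasted libraries, against 5.56, 4.36 and 4.59 TPM in fed libraries, a log2 fold change of 2.25 ± 0.12 (SE; limma adjusted p = 1.7e-07). Pdha1 had 117.4, 118.6, 114.5 and 117.8 TPM in fasted libraries, against 31, 32.25 and 31.3 TPM in fed libraries (1.86 ± 0.08, adjusted p = 7.7e-08). Every fasted library of both genes exceeded every fed one more than 3 times over, and 7 of the 9 members were separate, as were 88.3% of all genes.

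Cs had 105.7, 117.3, 116.4 and 143.1 TPM in fasted 17 h marrow libraries, against 37.3, 31.8 and 28.3 TPM in fed ones (1.86 ± 0.13, adjusted p = 4.8e-07). Ogdh had 102.4, 124.1, 114.2 and 180.8 TPM in fasted libraries, against 33.9, 28 and 25.9 TPM in fed ones (2.09 ± 0.18, adjusted p = 2e-06). Pdk1, Ogdh, Pdha1 and Cs lay above the median gene, by 1.07, 0.91, 0.68 and 0.68. These 4 kept their direction when libraries were quantile normalized, centred on their median or freed of the length trend. Their calls held too, except for Ogdh after removal of the length trend (0.31, limma adjusted p = 0.072). Centring shifts every gene of a library by the same amount, so its signs follow from a gene's place relative to the median gene. With the length trend removed, Cs (median annotated length 2964.5 bases) stood at 0.28 and Ogdh (4075 bases) at 0.31. Pdk1 (927.5 bases) stood at 1.55 and Pdha1 (679 bases) at 1.37. This removal shifts a transcript according to its annotated length, so how far each gene moved follows from the method. The part of length in these differences was not tested.

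The other 5 members lay below the median gene of the 17 h marrow comparison. Idh2 had 138.2, 145.8, 139.7 and 158.3 TPM in fasted libraries, against 84.8, 63.8 and 90.7 TPM in fed ones (0.87 ± 0.13, adjusted p = 8e-05; -0.22 with libraries centred). Idh3a (0.63) and Pdhb (0.38, adjusted p = 0.0067) were called higher as deposited, and with libraries centred on their median stood at -0.46 and -0.72, both called lower. Mdh2 had 272, 290.6, 298.6 and 287.2 TPM in fasted libraries, against 232.6, 219.6 and 280.8 TPM in fed ones, with 1 fed library above a fasted one (0.24, adjusted p = 0.047; -0.85 centred, and lost without 6 of the 7 libraries in turn). Fh1 was not called (0.15, limma adjusted p = 0.24) and stood at -0.94 centred and -0.55 quantile normalized, both called. With the length trend removed, Idh3a (-0.79, limma adjusted p = 0.00037) and Mdh2 (-0.33, adjusted p = 0.017) were called lower. Direction was thus the same across scalings for Pdk1, Pdha1, Cs and Ogdh, where the centred sign follows from lying above the median gene. It depended on the scaling for Pdhb, Idh3a, Fh1, Mdh2 and, when centred, Idh2.

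**Figure D4:**
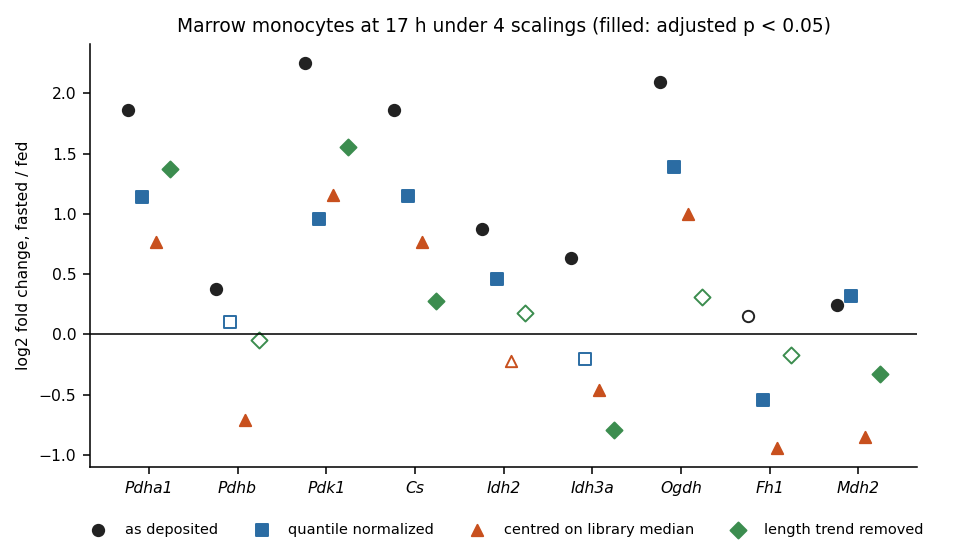
Log2 fold change of fasted over fed 17 h marrow monocytes (vertical axis) for the 9 members (horizontal axis) under 4 scalings (symbols; filled where the adjusted p is under 0.05). Pdha1, Pdk1, Cs and Ogdh stay above 0 under all 4, from 0.28 (Cs) to 2.25 (Pdk1), while Pdhb, Idh2, Idh3a, Fh1 and Mdh2 have values on both sides of 0.

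Set against the other marrow groups, the fed 17 h libraries were the ones out of range for these 4 genes. Mean Pdk1 was 26.7 TPM in fasted 17 h marrow and 28.2 to 33.8 TPM in the CCR2-/-, C57BL/6, 4 h fasted and 4 h fed groups, and mean Pdha1 was 117.1 TPM against 97.95 to 136.1 TPM. Fh1 was the exception: its mean was 70.35 TPM in fasted libraries and 63.6 TPM in fed 17 h libraries, and 100.1 to 120.1 TPM in the 4 other marrow groups. The monocyte marker sum, over all 7 markers, was 7990 to 8845 TPM in fasted libraries and 11950 to 13270 TPM in fed 17 h libraries, although Ccr2 itself was at 1818 to 2223 TPM in fasted libraries and 486 to 547.5 TPM in fed libraries. The part of the fed libraries' lower median, and of their length slope relative to the fasted libraries, was not tested.

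The difference between the 17 h and the 4 h fasting differences in marrow was tested over 15 libraries and 8844 genes, of which 88% were called (75.1% higher), and the median gene differed by 1.27. All 9 members were called, from 0.34 (Fh1, adjusted p = 0.026) to 2.26 (Pdk1, limma adjusted p = 6.5e-08). Ogdh, Cs and Pdha1 followed at 2.25, 2.06 and 1.99, and Idh2, Idh3a, Pdhb and Mdh2 stood at 1.19, 0.82, 0.45 and 0.42. The Fh1 call ended without 4 of the 15 libraries in turn, with the smallest value, 0.23 (adjusted p = 0.094), without fed 17 h library 2, and after removal of the length trend (0.13, adjusted p = 0.44). After quantile normalization Fh1 was called in the opposite direction (-0.32, adjusted p = 0.027). With libraries centred on their median, Pdhb (-0.70), Fh1 (-0.80) and Mdh2 (-0.73) were called in the opposite direction, and Idh3a stood at -0.33 (limma adjusted p = 0.051). With the length trend removed, Idh3a was called in the opposite direction (-0.71, limma adjusted p = 0.00062).

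In spinal cord monocytes, fasting cycles during EAE changed none of the 9 at an adjusted p under 0.05 (limma; 2.43% of 9079 genes, 221, were called and 1950 had an unadjusted p under 0.05). Pdk1 had the largest difference, with 17.1, 24.6, 19.8 and 13.3 TPM in fasted libraries, against 5.18, 8.06, 11.65 and 14.4 TPM in fed libraries (0.91, 95% interval 0.16 to 1.67, adjusted p = 0.17). The fourth fed library lay above the lowest fasted one. No member had separate groups, against 15.2% of all genes, and the median gene stood at 0.26. Pdhb stood at 0.50 (adjusted p = 0.33) and Pdha1 at 0.45 (adjusted p = 0.35). With fed libraries 3 and 4 as the only fed ones, Pdk1 stood at 0.46, Pdha1 at 0.09 and Pdhb at 0.04.

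The fed spinal cord libraries fell into 2 pairs for most members, the neutrophil-marker-rich libraries 1 and 2 being the low pair. Fh1 had 35.9, 40.1, 33.6 and 39.8 TPM in fasted libraries, against 13.3, 16.1, 61.5 and 59.8 TPM in fed libraries. The fasted values lay between the fed pairs. Idh2 followed the same layout, with 79.6, 63.4, 97.5 and 78 TPM in fasted libraries, against 32.2, 32.2, 143.8 and 110.1 TPM in fed ones. Idh3a had 48.7, 59.4, 50 and 46.7 TPM in fasted libraries, against 20, 18.4, 66.6 and 51.9 TPM in fed ones, its second fasted library lying above the fourth fed one. With fed libraries 3 and 4 as the only fed ones, Fh1 was called lower in fasted mice (-0.69, adjusted p = 0.044, against 0.30 over all libraries). Idh2 then stood at -0.67 (against 0.30), Cs at -0.002 (against 0.37), Idh3a at -0.20 (against 0.58) and Ogdh at -0.03 (against 0.39), none of them called. Mdh2 did not follow the pairs, at 400.4, 431.1, 491.3 and 432.1 TPM in fasted libraries, against 561.7, 494.5, 504.9 and 423 TPM in fed ones (-0.17, adjusted p = 0.60).

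With loss of CCR2, 1 of the 9 members was called in marrow monocytes of fed mice, lower. Ccr2 itself was at 64.65, 62.3 and 60.8 TPM in CCR2-/- libraries and 2449, 2622 and 2338 TPM in C57BL/6 libraries. Ogdh was the only member called among 4.38% of all genes (3.74% lower), with 138, 115.2 and 120.8 TPM in CCR2-/- libraries, against 192.4, 171.4 and 156.6 TPM in C57BL/6 libraries (-0.47 ± 0.10, limma adjusted p = 0.048). Its groups did not overlap, and those of the other 8 members did, where 33.3% of all genes were separate. The call ended after removal of the length trend (-0.27, adjusted p = 0.057), without the variance trend (adjusted p = 0.062) and without any 1 of CCR2-/- libraries 2 and 3 or C57BL/6 libraries 1 and 2 (adjusted p = 0.11 to 0.17). Fh1 had 105.8, 122.1 and 132.4 TPM in CCR2-/- libraries, against 93.3, 98.1 and 108.9 TPM in C57BL/6 libraries, and was not called (0.26, adjusted p = 0.15). The other 7 lay between -0.16 (Pdk1) and 0.09 (Idh2), with Cs at -0.08, Idh3a at -0.05, Pdha1 at -0.04, Pdhb at 0.02 and Mdh2 at 0.05, and Cs, Idh3a and Pdha1 turned positive with libraries centred.

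A fast of 4 h is the only one that liver and marrow shared, and the 4 h fasting differences were compared over 13 libraries and 7295 genes. Fh1 was the only member called, lower by 0.58 in hepatocytes relative to marrow monocytes (SE 0.19, limma adjusted p = 0.038), where 24.7% of genes were called (17.6% lower) and the median gene stood at -0.20. The Fh1 call ended after quantile normalization (-0.38), centring (-0.49) or removal of the length trend (-0.27), and without 9 of the 13 libraries in turn, with the smallest value, -0.33 (adjusted p = 0.16), without fasted hepatocyte library 2. Cs (-0.42, adjusted p = 0.084), Idh3a (-0.73, adjusted p = 0.074), Pdhb (-0.37, adjusted p = 0.070), Pdha1 (-0.43, adjusted p = 0.17), Pdk1 (-0.34, adjusted p = 0.43) and Mdh2 (0.11, adjusted p = 0.55) were not called. Nor were Ogdh (-0.17, adjusted p = 0.71; 0.02 with the length trend removed) and Idh2 (-0.04, adjusted p = 0.85; positive under 3 other scalings).

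The wider pathway was described through 5 lists that hold 48 genes with the members included. In hepatocytes at 4 h, 28 of the 45 genes tested fell and 1 rose, against 26.8% and 10.4% of all genes, with a median log2 fold change of -0.45 against -0.22 for all genes. Of the 15 TCA cycle genes 12 fell, among them Sdha (-0.88), a catalytic subunit of succinate dehydrogenase, and Suclg2 (-0.79) and Sucla2 (-0.78), which encode succinyl-CoA ligase subunits. Of the 5 genes of the pyruvate dehydrogenase complex 3 fell, with Dld, the E3 subunit shared with the 2-oxoglutarate dehydrogenase complex, at -1.21 (adjusted p = 0.00019). None of the 4 kinase and phosphatase genes tested was called.

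At 12 h in hepatocytes 19 of the 45 fell and 10 rose, against 16.8% and 23.4% of all genes, with a median of -0.18 against 0.05 for all genes. Ogdh rose together with Dlst (0.56), the E2 component of its complex, while Sdha (-0.83), Suclg2 (-1.13) and Cs fell. Gpt2 and Got1, aminotransferases that link pyruvate and oxaloacetate to amino acids, were lower at 4 h (-1.01 and -0.64) and higher at 12 h (0.99 and 0.88). The 12 h minus 4 h difference of Gpt2, 2.00, and of Got1, 1.52, were both called. Idh1 and Acly, the cytosolic isocitrate dehydrogenase and the ATP citrate lyase that opens lipid synthesis, fell at both times, Idh1 by 1.61 and 2.01 and Acly by 1.64 and 1.92 on the log2 scale. Ldhb, a lactate dehydrogenase subunit, rose at both, by 1.25 and 1.78.

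As deposited, Pdk1, Pdk2 and Pdk4 were not called at either time in hepatocytes, and their levels set beside each other changed with time. Of the 4 kinase and phosphatase genes tested, 1 was called lower at 12 h. Pdk1 was called lower at 12 h with libraries centred, with the length trend removed and with only the 12 h libraries fitted. Pdk2 was at 123.6 and 159 TPM in fasted libraries and 166.9, 178.3 and 175.9 TPM in fed libraries at 4 h, and Pdk1 TPM over Pdk2 TPM was 0.22 to 0.26 in fasted and 0.24 to 0.26 in fed libraries. At 12 h, where Pdk2 was at 109.5, 116.2 and 96.6 TPM in fasted libraries and 99.9 and 90.1 TPM in fed libraries, the ratio was 0.42 to 0.55 in fasted and 0.66 to 0.75 in fed libraries. Pdk4, a kinase known to be induced in fasting, was at 3.65 and 3.81 TPM in fasted libraries and 1.86, 3.69 and 3.31 TPM in fed libraries at 4 h (0.29, adjusted p = 0.38). At 12 h it was at 14.7, 15.8 and 19.6 TPM in fasted libraries and 10.6 and 11.45 TPM in fed libraries (0.55, adjusted p = 0.10). The 12 h groups did not overlap for Pdk4, as for 71.4% of all genes. Pcx, pyruvate carboxylase, the other entry of pyruvate into the cycle, was not called at either time (-0.17, adjusted p = 0.063, and 0.10, adjusted p = 0.26). Pdk4 and Pcx in monocytes are not analysed here.

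In marrow none of 42 pathway genes was called at 4 h, where 0.424% of all genes were. At 17 h 34 rose and 3 fell as deposited, against 75.4% and 14% of all genes, with a median of 0.90 against 1.18 for all genes. The 3 that fell were Mpc1 (-0.71) and Mpc2 (-1.64), which form the mitochondrial pyruvate carrier, and Sdhb (-0.60). Acly had the largest value, 2.96, with 102.9, 112.9, 113.2 and 152.4 TPM in fasted libraries, against 18.6, 13.5 and 11.9 TPM in fed ones. Pdk2 (2.32) and Pdpr (2.34), a regulator of the pyruvate dehydrogenase phosphatase, lay beside Pdk1. In spinal cord 1 of 41 genes was called, against 2.43% of all genes. It was Pdk2, with 19.85, 24.3, 28.45 and 23 TPM in fasted libraries, against 3.84, 2.25, 7.61 and 6.80 TPM in fed libraries (2.12, limma adjusted p = 0.017). All 4 fasted libraries exceeded all 4 fed ones for Pdk2, fed libraries 3 and 4 included, and Pdk1 TPM over Pdk2 TPM was 0.58 to 1.01 in fasted and 1.35 to 3.59 in fed libraries. With CCR2 loss 2 of 42 were called, Ogdh and Acly (-0.50, limma adjusted p = 0.044), against 4.38% of all genes.

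A list of 15 HIF1A-responsive genes holds Pdk1. Of 13 tested in hepatocytes 1 was called higher and 2 lower at 4 h, against 10.4% and 26.8% of all genes, and 2 higher and 3 lower at 12 h, against 23.4% and 16.8%. In marrow at 17 h 11 of 12 were higher and 1 lower, against 75.4% and 14% of all genes, with a median of 1.15, near the 1.18 of all genes. At 4 h in marrow 0 of 11 were called, against 0.424% of all genes. In spinal cord 1 of 13 was called, Vegfa, lower (-2.23, limma adjusted p = 0.027), against 2.43% of all genes called. With CCR2 loss 0 of 12 were called, against 4.38% of all genes.

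**Figure D5:**
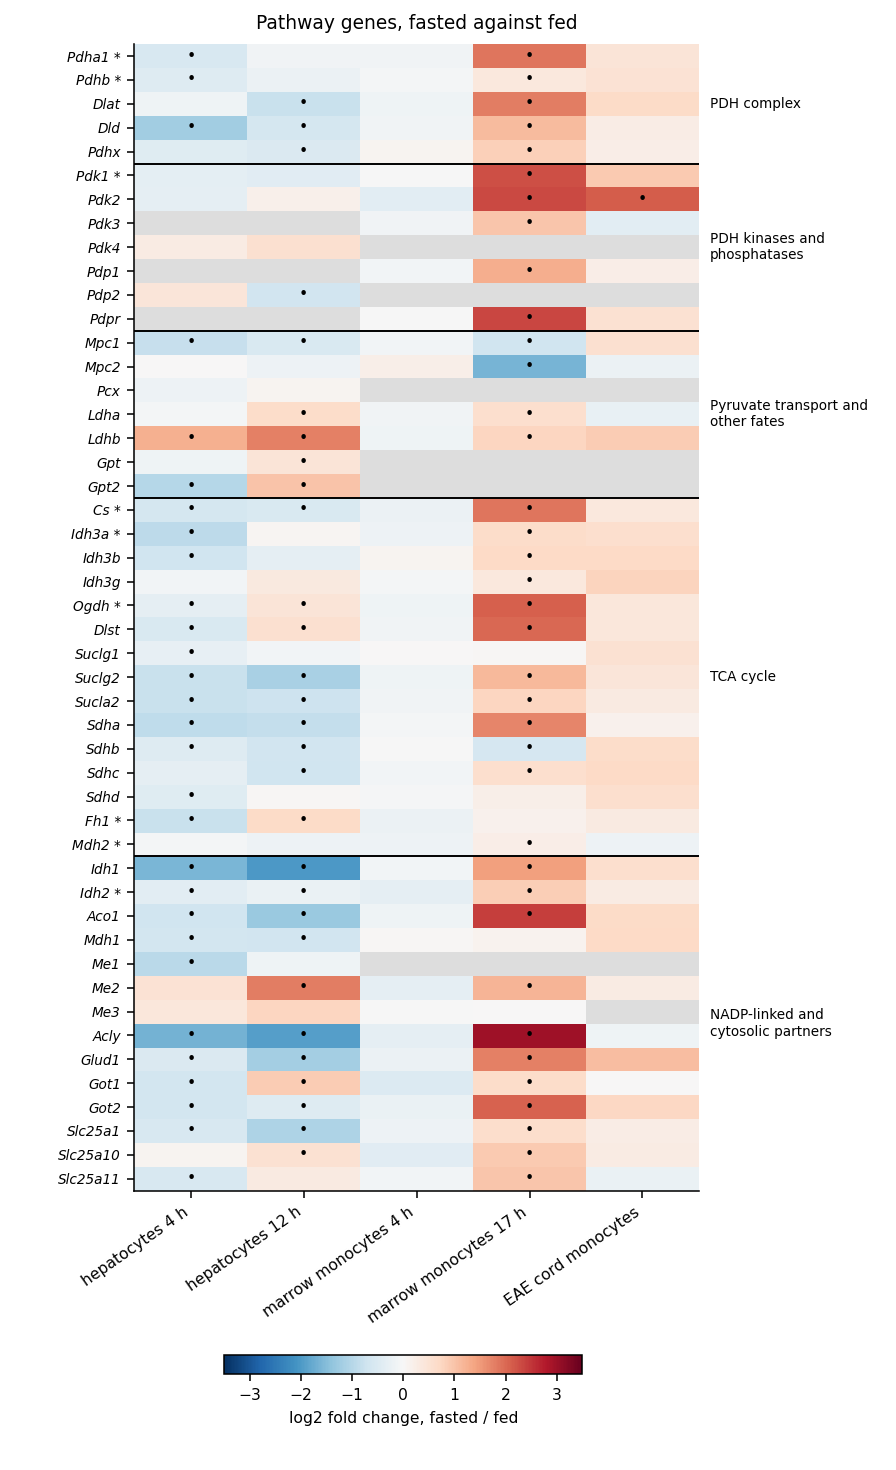
Log2 fold change of fasted over fed (colour, red higher and blue lower in fasted mice) for the genes of the 5 pathway lists (vertical axis, members starred, lists separated by lines) in 5 comparisons (horizontal axis); dots mark an adjusted p under 0.05 and grey cells were not analysed. Blue dominates the 4 h hepatocyte column (28 of 45 called lower), both colours appear at 12 h (19 lower, 10 higher), the 4 h marrow column has no dot, and the 17 h marrow column is mostly red as deposited (34 of 42 called higher), where the median of all genes is 1.18.

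Across the 12 group means, some members ran together. Pearson's r of log2(TPM + 1) was 0.92 for Pdha1 with Idh3a, 0.91 for Pdhb with Idh3a and 0.84 for Pdha1 with Pdhb, the 3 of 36 pairs above 0.8, and Fh1 with Mdh2 was lowest at -0.63. The genes most like each member among 6615 compared were Psmd1, Pias2 and Rhot1 for Pdha1 (r = 0.991 for Psmd1), Pid1, Gatc and Farsb for Pdhb, Aldh9a1, Cpped1 and Thtpa for Pdk1, and Vps11, Naa60 and Dhx8 for Cs. For Idh2 they were Mpv17, H2-T22 and Tmx2, for Idh3a Rsl1d1, Psmc1 and Thoc1, for Ogdh Nploc4, Emc1 and Trak1, for Fh1 Dpp4, 2810004N23Rik and Gpr155 (r = 0.957 for Dpp4), and for Mdh2 Bcl3, Thap4 and Wbp2. The 12 points share libraries and their scaling within each experiment, the fed 17 h marrow group included, and these values are descriptions.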

How the data were processed

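RNA was prepared with the RNeasy Mini kit and a Clontech low input kit, per the labels' protocols, and the authors used kallisto 0.44.0 and GRCm38, per the submitters' processing notes. One table was deposited by the authors for each library, and its values were taken as deposited TPM: they are not whole numbers and each library sums to 982900 to 994000. Entries whose symbol had become a date, 13 to 15 a table, were left out. No source used here gives the authors' annotation or filter. Values were transformed as log2(TPM + 1); genes with a mean of at least 1 TPM were tested with limma 3.58.1 (R 4.3.3; mean-variance trend, robust), with Benjamini-Hochberg adjustment over all genes and a threshold of 0.05. The 10 hepatocyte libraries were fitted together and each monocyte experiment alone, with interactions over 15 marrow libraries and, for liver against marrow, 13 libraries. The fits were tested on simulated data. These fold changes understate changes of low genes. Transcript lengths, 97.2% matched, came from GENCODE M21, as medians over annotated transcripts, which need not be the lengths of the transcripts expressed. The members and lists were chosen with earlier results of these data known, and 1 gene of the lists is not reported here. All 9 members were named in every comparison, list genes where they passed the threshold (Pdk4 and Pcx always, in hepatocytes), and the 3 genes most alike by Pearson's r over group means with a mean of at least 10 TPM. Alternatives were quantile normalization, library centring, no filter, a minimum of 10 TPM, a pseudocount of 0.1, no variance trend, the replicate number as a block, 1 hepatocyte time alone, a z of separate fits, each library left out, and, chosen after seeing the data, removal of the length trend and fed spinal cord libraries 3 and 4 only. Python 3.11.15, numpy, pandas and matplotlib made tables and figures.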

Additional observations from a re-analysis of the deposited data

Results flagged for a closer look

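Of 45 member and group sets of 4 libraries, 2 had a library far from the others, and chance alone flags about 1 in 20. Pdk1 was at 30.05 TPM in fasted 17 h marrow library 1, against 25.4 to 26 TPM in the other 3. Pdha1 was at 128.6 TPM in fed 4 h marrow library 4, against 97.7 to 100.9 TPM in the other 3.

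Differences between fasting effects were tested for the 9 members in 3 pairs of contrasts, 27 tests in all. In hepatocytes, 12 h minus 4 h, the tested difference was 0.77 for Ogdh and 1.44 for Fh1. In marrow monocytes, 17 h minus 4 h, it was 1.99 for Pdha1, 0.45 for Pdhb, 2.26 for Pdk1, 2.06 for Cs, 1.19 for Idh2, 0.82 for Idh3a, 2.25 for Ogdh, 0.34 for Fh1 and 0.42 for Mdh2, where the median gene differed by 1.27. At 4 h, hepatocytes minus marrow monocytes, it was -0.58 for Fh1.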

How the results depend on the processing

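Of 1494 member values under alternatives, 1347 kept direction and side of the threshold; no filter, a minimum of 10 TPM and a pseudocount of 0.1 changed no call. Centred on the library median, 7 members were called in 12 h hepatocytes and 0 in liver minus marrow. After removal of the length trend, 3 were called in 4 h hepatocytes and 0 in CCR2-/- and in liver minus marrow. That removal left 5 called in 17 h marrow, of which Idh3a and Mdh2 were lower, against higher as deposited. It left 5 called in the marrow time difference, of which Idh3a was in the opposite direction. With only their own time fitted, 4 members were called in 4 h hepatocytes; without the variance trend, 0 in CCR2-/- and in liver minus marrow; after quantile normalization, 0 in liver minus marrow; with fed spinal cord libraries 3 and 4 only, 1 in spinal cord. With 1 library left out, 0 to 1 members were called in CCR2-/- and 0 to 2 in liver minus marrow (2 without fasted hepatocyte library 1). These counts stand without the share of all genes called under the same alternative.

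Signs turned as follows, and the cause was not tested. Centred: Mdh2 0.024 (4 h hepatocytes), Idh3a -0.026 (12 h), Cs -0.12 and Idh2 -0.083 (hepatocyte time difference), Cs -0.080, Ogdh -0.21 and Fh1 -0.097 (fed 12 h minus 4 h), Pdk1 0.041 (4 h marrow), Pdhb -0.72, Idh2 -0.22, Idh3a -0.46, Fh1 -0.94 and Mdh2 -0.85 (17 h marrow), Pdhb -0.70, Idh3a -0.33, Fh1 -0.80 and Mdh2 -0.73 (marrow time difference), Pdha1 0.046, Cs 0.0080 and Idh3a 0.034 (CCR2-/-), Idh2 0.046 (liver minus marrow). Length trend removed: Mdh2 0.083 (4 h hepatocytes), Idh3a -0.14 (12 h), Pdhb -0.025, Cs -0.42 and Idh2 -0.19 (hepatocyte time difference), Cs -0.35 and Ogdh -0.64 (fed 12 h minus 4 h), Pdk1 0.026 (4 h marrow), Pdhb -0.043, Idh3a -0.79, Fh1 -0.17 and Mdh2 -0.33 (17 h marrow), Idh3a -0.71 and Mdh2 -0.15 (marrow time difference), Fh1 -0.065 (spinal cord), Cs 0.072 and Idh3a 0.068 (CCR2-/-), Idh2 0.11 and Ogdh 0.020 (liver minus marrow). Quantile: Mdh2 0.040 (4 h) and 0.0051 (12 h hepatocytes), Cs -0.028 (hepatocyte time difference), Pdk1 0.037 (4 h marrow), Idh3a -0.20 and Fh1 -0.55 (17 h marrow), Idh3a -0.038 and Fh1 -0.32 (marrow time difference), Idh2 0.16 (liver minus marrow). Fed spinal cord libraries 3 and 4 only: Cs -0.0022, Idh2 -0.67, Idh3a -0.20, Ogdh -0.028, Fh1 -0.69. With 1 library left out, values spanned 0 for Mdh2 in 4 h hepatocytes (-0.16 to 0.014), Pdk1 (-0.14 to 0.16) and Ogdh (-0.33 to 0.036) in 4 h marrow, Idh2 (-0.025 to 0.68) and Fh1 (-0.070 to 0.64) in spinal cord, Pdk1 in the hepatocyte time difference (-0.33 to 0.25), and Idh2 (-0.088 to 0.025) and Ogdh (-0.36 to 0.0074) in liver minus marrow.

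The replicate numbers did not pair the libraries: correlations of same-numbered deviations ran from -0.34 to 0.32 and no comparison with 3 or more pairs had all above 0.1. With the number as a block, 6 members were called in 4 h hepatocytes (7 without the block), 3 in 12 h hepatocytes (4), 7 in 17 h marrow (8) and 0 in liver minus marrow (1). The number of libraries, 2 to 4 a group, and the unknown depth limit what small differences can show.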
